A study of Mus musculus with 6 samples.

Results

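Mitochondrial ribosomal proteins are the nuclear-encoded protein subunits of the ribosome that works inside mitochondria, and their genes carry the symbols Mrpl (large subunit) and Mrps (small subunit). Members were all genes with a symbol that begins with Mrpl or Mrps and a number, and that had at least 1 probe set naming that gene alone. A gene with several probe sets was read from the brightest of them, by its mean over the 6 arrays. By that rule 74 of the 12393 genes tested were members, 47 of the large and 27 of the small subunit. Of the 78 protein-coding genes of the RefSeq gene table that match the pattern, Mrpl30, Mrpl53, Mrps10 and Mrps27 had no probe set of their own and were not analysed here. The rule used no measured difference between genotypes.

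RNA was taken from CD11c+ cells of the spleens of untreated mice aged 8 weeks and measured on Affymetrix MOE430A arrays, which give 1 brightness value per probe set. The tested mice carried an Atg16L1 hypomorphic genotype on the C57BL/6J background (3 arrays), and the others were wild-type C57BL/6J mice (3 arrays). A hypomorph has a gene of reduced function, and Atg16L1 is a component of the machinery that builds autophagosomes. CD11c is the surface marker used to collect dendritic cells, cells were collected with magnetic beads, and other CD11c-bearing cells can be collected with them. The labels name replicates without saying whether each came from a separate mouse, so a p-value here reflects only how much these samples vary. All values are log2 signals, and a difference is hypomorph minus wild type.

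Mitochondrial ribosomes translate the few proteins encoded by mitochondrial DNA, all of them membrane subunits of the respiratory chain and ATP synthase. Their own proteins are made in the cytosol and imported, so a working particle needs nuclear genes, mitochondrial ribosomal RNA and assembly factors together. Some of the proteins have counterparts in bacterial ribosomes and others are specific to mitochondria. Dendritic cells and macrophages use mitochondria both for energy and for signalling, and autophagy removes damaged mitochondria.

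The promoters of members of largest change are shown first, because the later counts of promoter letters rest on such windows. All are RefSeq windows on GRCm38.p6, from 170 bases before to 30 bases after the annotated start, 5′ to 3′ on the gene's strand. Capitals mark letters searched on both strands, either CCGGAAG (the core letters of ETS-family sites, read CTTCCGG in the other orientation) or GCATGCGC (letters of sites of NRF1, a nuclear regulator of mitochondrial genes, read GCGCATGC in the other orientation). Mrpl52 (chr14:54426739-54426938, plus strand) carries the ETS letters at 2 places, Mrpl33 (chr5:31613781-31613980, plus strand) carries both kinds next to each other, and Mrps26 (chr2:130563587-130563786, plus strand) carries the ETS letters close to the start. Mrpl39 (chr16:84735215-84735414, minus strand) is shown for its NRF1 letters, which overlap in both orientations, and was chosen after its values were seen. Mrpl12, which changed more than Mrpl39, holds none of the letters searched in its window and is not shown.
Mrpl52: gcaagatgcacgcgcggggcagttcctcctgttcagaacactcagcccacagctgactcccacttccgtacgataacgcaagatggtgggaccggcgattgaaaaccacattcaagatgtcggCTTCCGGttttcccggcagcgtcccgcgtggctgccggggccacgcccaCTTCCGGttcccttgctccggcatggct
Mrpl33: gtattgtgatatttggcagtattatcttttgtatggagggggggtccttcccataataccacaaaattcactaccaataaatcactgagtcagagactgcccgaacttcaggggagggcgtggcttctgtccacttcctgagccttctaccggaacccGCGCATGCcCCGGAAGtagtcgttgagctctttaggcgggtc
Mrps26: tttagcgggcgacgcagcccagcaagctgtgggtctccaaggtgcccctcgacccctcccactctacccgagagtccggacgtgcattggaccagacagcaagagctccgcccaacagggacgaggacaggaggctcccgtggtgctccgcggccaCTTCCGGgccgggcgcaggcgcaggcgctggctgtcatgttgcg
Mrpl39: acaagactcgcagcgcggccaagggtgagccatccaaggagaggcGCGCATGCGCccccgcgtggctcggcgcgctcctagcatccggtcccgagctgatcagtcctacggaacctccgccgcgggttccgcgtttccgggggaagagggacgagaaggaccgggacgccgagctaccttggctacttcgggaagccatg

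Several facts of the arrays bear on every value below. Atg16l1 itself averaged 6.03 ± 0.16 in hypomorph and 7.07 ± 0.035 in wild-type arrays (SD, n = 3 each), a log2 change of -1.04 (limma adjusted p = 0.00163), in the direction of the labels. Of 13 measured markers of conventional dendritic cells, all lay above the median gene level, and Itgax, which encodes CD11c, averaged 9.94 ± 0.072 in hypomorph and 10.32 ± 0.13 in wild-type arrays. Of 20 macrophage markers, 18 rose, with array means over the list from 10.68 to 10.77 in hypomorph and from 8.84 to 9.45 in wild-type arrays. Of 10 measured B cell markers 6 fell, with array means from 7.64 to 8.13 in hypomorph and from 8.24 to 8.60 in wild-type arrays. Of the dendritic cell markers 3 rose (Sirpa, Ccr7 and Xcr1) and 2 fell (Zbtb46 and Itgax), and of 17 proliferation markers 1 fell and 15 had a negative difference. The proliferation markers had a median difference of -0.24, with array means from 8.27 to 8.39 in hypomorph and from 8.20 to 8.74 in wild-type arrays, and wild-type replicate 1 held the highest value for 12 of them. Among T cell, NK cell, neutrophil and monocyte, and erythroid markers, 1 of 10, 0 of 8, 2 of 9 and 1 of 7 rose and none fell, while of 6 plasmacytoid dendritic cell markers 1 rose and 1 fell. The mean signal of the added poly-A spike-in RNA was 7.69 ± 0.18 in hypomorph and 9.48 ± 0.50 in wild-type arrays, a difference of -1.79. The 18S rRNA signal was 8.76 ± 0.061 in hypomorph and 9.43 ± 0.21 in wild-type arrays. The 3′ minus 5′ difference of beta-actin, a sign of RNA integrity and of the labelling reaction, was 0.737 ± 0.039 in hypomorph and 0.973 ± 0.042 in wild-type arrays. None of these 3 controls had overlapping groups (exact permutation p = 0.1 each, two-sided, the smallest that 3 arrays against 3 allow). The part of these cell markers and control signals in the results below was not tested, except that the genotype comparison was also fitted with the spike-in signal as a covariate. In bulk samples, fewer cells of a type and less RNA per cell cannot be told apart.

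Mitochondrial ribosomal protein genes differed little between genotypes, and those that passed the test were lower in hypomorph cells. Among the members 7 genes, Mrpl52, Mrpl33, Mrps26, Mrpl12, Mrpl39, Mrps16 and Mrpl43, fell, and 0 rose. These 7 are 9.46% of the 74 members, against 8.47% of all 12393 genes that fell, while 9.76% of all genes rose. The share that fell is near the background. A total of 51 members had a negative and 23 a positive difference. The negative ones are 68.9% of members, against 59.0% of all genes. No member reached a 1.5-fold change, a size that 9.79% of all genes reached. Calls are from limma with Benjamini-Hochberg adjustment over all 12393 genes, at an adjusted p under 0.05.

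Mrpl52, which encodes a large-subunit protein specific to mitochondria, had the largest difference and was the brightest member. Its values were 9.94, 10.01 and 9.96 in hypomorph arrays, against 10.66, 10.45 and 10.41 in wild-type arrays. All 3 hypomorph arrays lay below all 3 wild-type arrays, a fall of 1.45-fold (log2 change -0.54, SE 0.089, limma adjusted p = 0.00992). Its call was lost without hypomorph replicate 3 and when the mean of its 4 probe sets stood for the gene (-0.26, limma adjusted p = 0.0646).

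Mrps26, a small-subunit protein specific to mitochondria, had values of 8.04, 7.94 and 8.02 in hypomorph arrays, against 8.51, 8.31 and 8.43 in wild-type arrays. The groups did not overlap, and the log2 change was -0.42 (SE 0.083, limma adjusted p = 0.0175). Mrps16, the small-subunit protein with a bacterial counterpart in which human mutations impair the respiratory chain, read 8.93, 8.89 and 8.91 in hypomorph arrays, against 9.22, 9.19 and 9.20 in wild-type arrays. Replicates of Mrps16 were close within each genotype, with SDs of 0.022 in hypomorph and 0.014 in wild-type arrays, and its log2 change was -0.30 (SE 0.066, limma adjusted p = 0.0256).

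Mrpl12 encodes the protein of the flexible stalk that contacts translation factors, and in human cells it also binds the mitochondrial RNA polymerase. It read 8.25, 8.14 and 8.19 in hypomorph arrays, against 8.66, 8.52 and 8.51 in wild-type arrays, a non-overlapping difference of -0.37 (SE 0.079, limma adjusted p = 0.0213). Mrpl33, a small protein with a bacterial counterpart, read 8.98, 8.84 and 8.92 in hypomorph arrays, against 9.59, 9.26 and 9.19 in wild-type arrays. For Mrpl33 wild-type replicate 1 stood above the other wild-type arrays, and the log2 change was -0.43 (SE 0.12, limma adjusted p = 0.0464). The other probe set of Mrpl33 averaged 3.57 in both genotypes, below the array medians of 5.66 to 5.72, and differed by -0.002. The mean of both probe sets gave -0.22 (limma adjusted p = 0.189), while median centring gave a limma adjusted p of 0.0548.

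Mrpl39 and Mrpl43 are large-subunit proteins specific to mitochondria. Mrpl39 read 9.46, 9.50 and 9.49 in hypomorph arrays, against 9.98, 9.77 and 9.74 in wild-type arrays, a log2 change of -0.34 (SE 0.087, limma adjusted p = 0.0379). Its other probe set differed by 0.06, and the mean of both gave -0.14 (limma adjusted p = 0.282), while median centring gave a limma adjusted p of 0.0523. Mrpl43 read 8.42, 8.41 and 8.33 in hypomorph arrays, against 8.64, 8.72 and 8.61 in wild-type arrays, a log2 change of -0.27 (SE 0.074, limma adjusted p = 0.0458). Neither gene had overlapping groups.

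**Figure D1:**
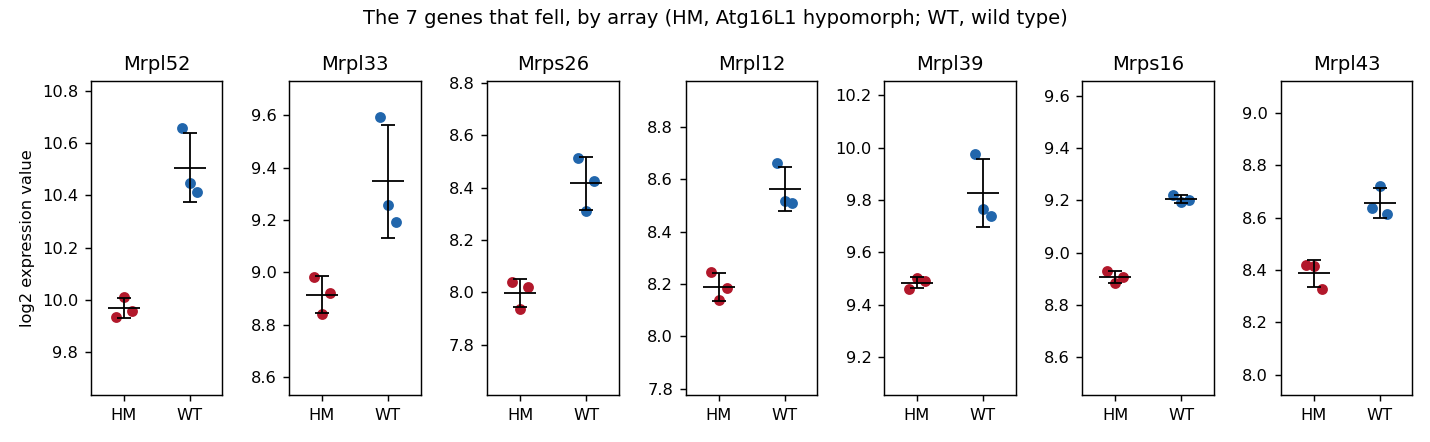
Log2 signal of the 7 fallen genes on each array, with hypomorph arrays left of wild-type arrays, points for arrays and lines for group means. In every panel all hypomorph points lie below all wild-type points, by 0.54 on average for Mrpl52 and by 0.27 for Mrpl43.

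With 1 array left out at a time, the differences of the 7 kept their direction while calls were lost. They ran, for example, from -0.58 to -0.46 for Mrpl52, from -0.31 to -0.29 for Mrps16 and from -0.29 to -0.24 for Mrpl43. Leaving out hypomorph replicate 1 or replicate 2 left 1 member fallen (Mrpl52 each time), and leaving out hypomorph replicate 3 left 0 at the same limma threshold, with 9 lower at an unadjusted p under 0.05. Calls over all genes dropped in these fits too, to 2.78%, 1.82% and 1.55% fallen in that order. Leaving out wild-type replicate 1, 2 or 3 left 7, 6 and 5 fallen, of which 6, 5 and 5 were among the 7 above, beside 7.9%, 8.78% and 6.49% of all genes. Mrpl52 was called in 5 of these 6 fits, Mrps26, Mrpl12 and Mrpl39 in 3, Mrpl33 and Mrps16 in 2 and Mrpl43 in 0. With the spike-in signal as a covariate, limma called 0 of the 74 and 0 of all genes, 1 member was lower at an unadjusted p under 0.05, and standard errors were 2.96 times as large in the median.

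No member rose at the limma threshold, and 5 were higher at an unadjusted p under 0.05, beside 16 lower, among them the 7 that fell. These are 6.76% and 21.6% of members, against 15.6% and 18.4% of all genes. The members of largest positive difference, named after their values were seen, were Mrpl11, Mrpl35, Mrpl42, Mrpl3 and Mrpl27. Mrpl11, at the base of the factor-binding stalk, read 8.44, 8.45 and 8.34 in hypomorph arrays, against 8.25, 7.96 and 8.11 in wild-type arrays, a difference of 0.30 (limma adjusted p = 0.0691). Its 3 other probe sets all had negative differences. Mrpl42 had a difference of 0.23 (limma adjusted p = 0.0735), and Mrpl27, which lies near the peptidyl transferase centre in the bacterial ribosome, one of 0.18 (limma adjusted p = 0.123). Mrpl11 passed the threshold without wild-type replicate 1, the single rise in the 6 fits that leave out an array. In that fit 1.35% of members and 8.92% of all genes rose.

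Apart from Mrpl52, members picked by level or by smallest difference had differences from -0.27 to 0.07, and none of them passed the threshold. Mrps14 and Mrpl24, the other two brightest members, averaged 9.72 ± 0.029 and 9.61 ± 0.051 in hypomorph arrays, against 9.74 ± 0.069 and 9.83 ± 0.036 in wild-type arrays. Mrpl24 had a difference of -0.22 and was not called (limma adjusted p = 0.0733), although its groups did not overlap. Of the dimmest members, Mrpl1, part of the mobile stalk beside the tRNA exit, differed by 0.07, and Mrps11, in the platform of the small subunit, by -0.10. Mrpl38, in the central protuberance, differed by -0.27 (limma adjusted p = 0.0628). Its groups did not overlap either, and its difference was about that of Mrpl43, which was called. Mrpl9 had the smallest difference, with means of 7.80 ± 0.065 in hypomorph and 7.80 ± 0.14 in wild-type arrays. Probe brightness does not rank transcripts, so these levels are compared only between genotypes.

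**Figure D2:**
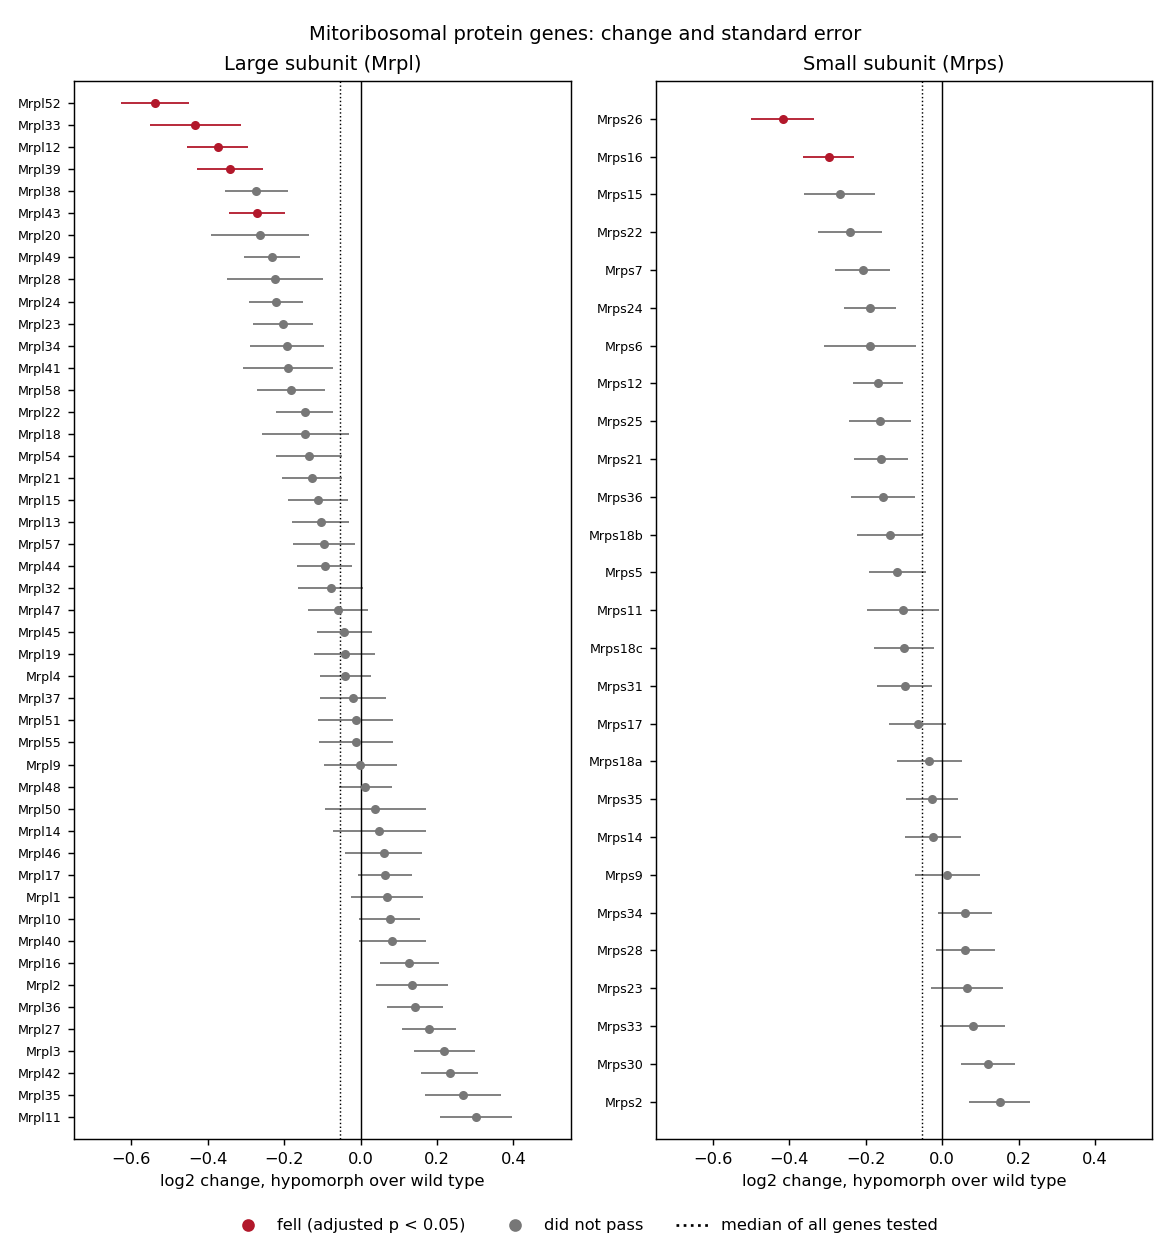
Log2 difference, hypomorph minus wild type, of each of the 74 members with its standard error, by subunit, with the 7 called genes marked. Points run from -0.54 to 0.30, and no positive one passed the threshold.

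By array rather than by call, hypomorph cells lay entirely below wild type for 28 members (37.8%) and entirely above for 9 (12.2%), and the groups overlapped for 37. Of all genes 22.5% lay entirely below and 18.5% entirely above. The shares were 66.7% and 4.76% of cytosolic ribosomal protein genes, and 42.3% and 16.7% of nuclear genes for respiratory chain subunits. A larger share entirely below than over all genes was thus not particular to the members. The median difference over members was -0.10 (quartiles -0.19 and 0.06), beside -0.05 over all genes. Of the members 73 (98.6%) lay above the median gene level. Among genes above that level the median was -0.096 over members and -0.006 over all genes. Wild-type arrays spread more than hypomorph arrays, with a median SD over members of 0.092 in wild type and 0.047 in hypomorph cells. Over all genes these medians were 0.142 and 0.089. Wild-type replicate 1 held the highest of the 6 values for 37 members, or 50%, and for 31.8% of all genes. Its title holds a different number from the one in the other titles, and the labels do not say what that number means. Hypomorph replicate 3 held the lowest value for 29 members, and the share over all genes was not counted. Without wild-type replicate 1 the median over members was -0.06, beside -0.03 over all genes.

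Large and small subunits were set against each other with counts, medians and array means. In the large subunit 5 of 47 genes fell, 10.6%, with a median difference of -0.06, and in the small subunit 2 of 27 fell, 7.41%, with a median of -0.10. Of all genes 8.47% fell, with a median of -0.05, so both shares are near the background. The difference between the medians, large minus small, was 0.04, and was not tested because members are not replicates. Relative to the wild-type mean, the large subunit averaged -0.038, -0.072 and -0.090 in hypomorph arrays, against 0.063, -0.069 and 0.006 in wild-type arrays. There wild-type replicate 2 lay among the hypomorph arrays. The small subunit averaged -0.069, -0.103 and -0.119 in hypomorph arrays, against 0.039, -0.050 and 0.012 in wild-type arrays, without overlap. The mean of large minus that of small was 0.190, 0.190 and 0.189 in hypomorph arrays and 0.184, 0.141 and 0.154 in wild-type arrays, so that the hypomorph values were the higher ones, with wild-type replicate 1 closest to them.

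**Figure D3:**
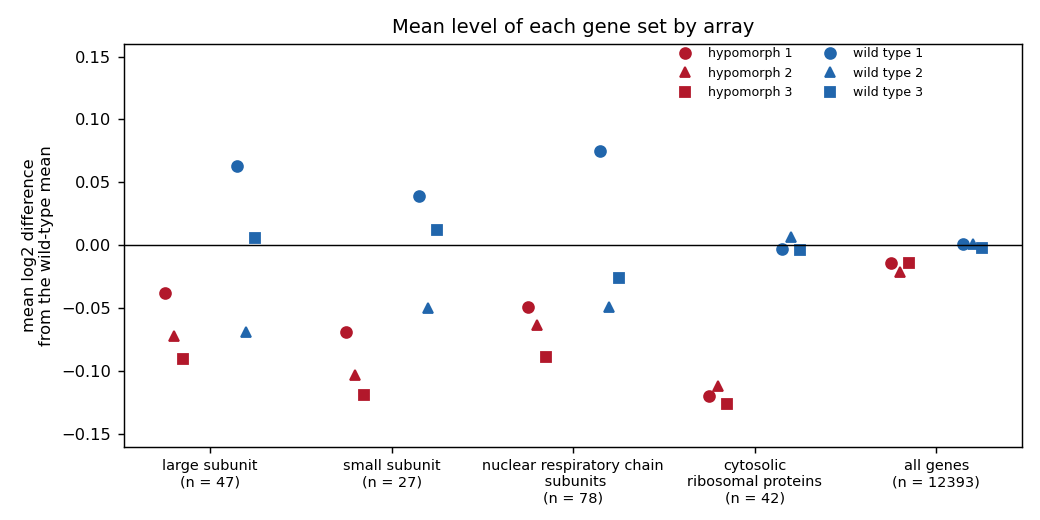
Mean log2 difference from the wild-type mean on each array, for the large subunit, the small subunit, respiratory chain subunits, cytosolic ribosomal proteins and all genes, with hypomorph arrays left of wild-type arrays. Wild-type replicate 2 lies among the hypomorph arrays for the large subunit, and the groups do not overlap for the small subunit, for cytosolic ribosomal proteins or for all genes.

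Gene symbols do not fully follow the structure. The proteins of Mrps30 and Mrps18a sit in the large subunit, and that of Mrps36 is a component of the 2-oxoglutarate dehydrogenase complex. Mrps30 differed by 0.12, Mrps18a by -0.03 and Mrps36 by -0.15, and none passed the threshold (limma adjusted p = 0.287, 0.814 and 0.239 in that order). With the subunits assigned by structure, 5 of 49 large (10.2%) and 2 of 24 small subunit genes (8.33%) fell, with medians of -0.04 and -0.11. Split by origin, 3 of 44 members with a bacterial counterpart fell (6.82%), with a median of -0.09. So did 4 of 29 specific to mitochondria (13.8%), with a median of -0.09. Of all genes 8.47% fell.

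Several members could be read from more than 1 probe set. The 74 members had 127 single-gene probe sets, and 33 members had several. In 20 of these all probe sets had the same sign and in 13 they did not. In a limma fit over all 20379 single-gene probe sets, 2 of the 53 not chosen fell, for Mrpl15 (-0.53, limma adjusted p = 0.0121) and Mrpl49 (-0.37, limma adjusted p = 0.0424). The 3 that rose were those of Mrpl17 (0.44, limma adjusted p = 0.0112), Mrpl35 (0.50, limma adjusted p = 0.0413) and Mrpl19 (0.31, limma adjusted p = 0.0377). Those of Mrpl17 (4.11 in hypomorph and 3.66 in wild-type arrays), Mrpl35 (4.47 and 3.97) and Mrpl15 (4.99 and 5.52) averaged below the array medians of 5.66 to 5.72. Those of Mrpl19 and Mrpl49 averaged above them. Mrpl19 differed by -0.04 on its brightest probe set, the other direction, and Mrpl15, with 7 probe sets, had differences spread over 0.741. The genes of these unchosen probe sets, other than Mrpl19, were named after their values were seen. In the fit over all single-gene probe sets, 6.3% of the 127 probe sets of members fell and 2.36% rose, against 7.73% and 9.95% of all.

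**Figure D4:**
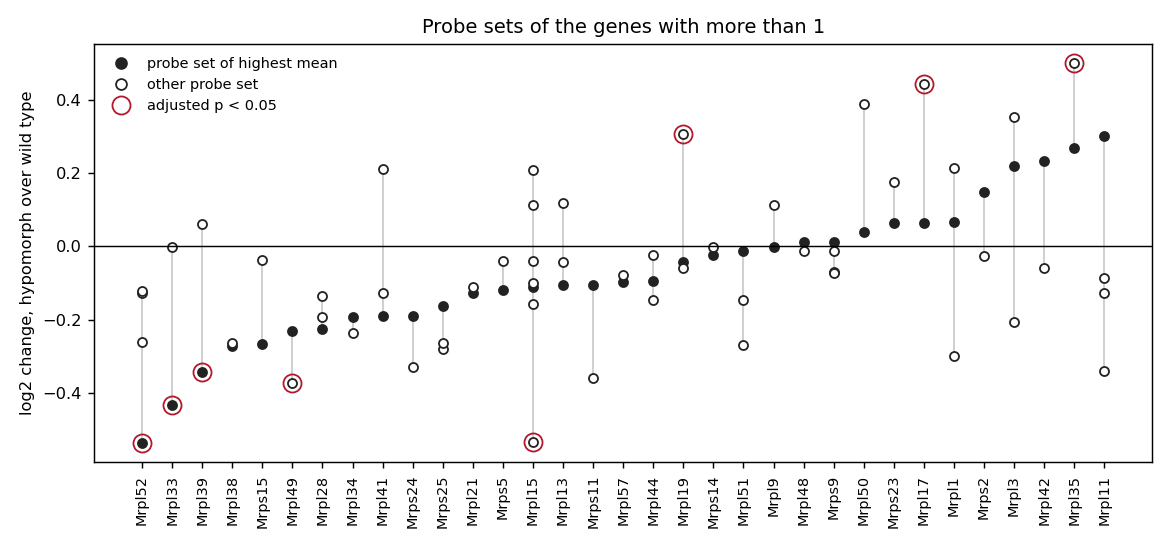
Log2 difference of every single-gene probe set of the 33 members that have several, with the chosen probe set of highest mean marked. The differences of a gene's probe sets span from 0.008 for Mrpl38 to 0.741 for Mrpl15.

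Among proteins of the mitochondrial ribosome that carry other symbols, 4 of 5 were measured and 1 fell. Ptcd3, which encodes a small-subunit protein, averaged 8.00 ± 0.043 in hypomorph and 8.61 ± 0.016 in wild-type arrays (log2 change -0.61, limma adjusted p = 0.0027), a larger change than that of any member. Dap3, Gadd45gip1 and Chchd1 also had negative differences, and the median of the 4 was -0.23. Adding them to the members gave 8 fallen genes of 78, or 10.3%, against 8.47% of all genes.

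Genes that serve mitochondrial translation without being part of the ribosome were counted by list. Of all genes 8.47% fell and 9.76% rose. Of 19 measured assembly and ribosomal RNA modification factors 3 fell (15.8%) and 0 rose by limma (2 were higher at an unadjusted p under 0.05). Those that fell were Mettl17, an assembly factor (-0.50, limma adjusted p = 0.0117), Mrm1, an rRNA methyltransferase (-0.41, limma adjusted p = 0.0146), and Dhx30, an RNA helicase (-0.45, limma adjusted p = 0.0225). Of 13 measured aminoacyl-tRNA synthetase and related genes 3 fell (23.1%) and 0 rose by limma (4 were higher at an unadjusted p under 0.05). Those that fell were Hars2 at -0.52 (limma adjusted p = 0.0134), Qrsl1 at -0.50 (limma adjusted p = 0.0184) and Tars2 at -0.31 (limma adjusted p = 0.0416). The median differences of the assembly and synthetase lists were -0.07 and -0.05, beside -0.05 over all genes. Of 7 measured translation factors none passed the limma threshold (at an unadjusted p under 0.05, 1 was lower and 1 higher), the nearest being Mtfmt, which formylates the initiator methionyl-tRNA (-0.43, limma adjusted p = 0.081).

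Among 15 genes of mitochondrial transcription and its nuclear regulators, Tefm, the elongation factor of mitochondrial transcription, rose by 0.49 (limma adjusted p = 0.0306). Nrf1, which encodes the factor whose letters are marked above, fell by 0.32 (limma adjusted p = 0.0302). These single calls are each 6.67% of the list, beside 9.76% of all genes that rose and 8.47% that fell. Of 19 measured import channel genes 3 fell, 15.8%, against 8.47% of all genes. They were Timm44, Tomm40 and Timm13, with differences of -0.27, -0.34 and -0.35 (limma adjusted p = 0.04, 0.0447 and 0.0454). The median differences of these lists were -0.06 and -0.05.

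Both families most like the members showed small negative medians as well. Of 42 cytosolic ribosomal protein genes 4 fell (9.52%) and 0 rose by limma (1 was higher at an unadjusted p under 0.05). A negative difference was seen for 39 of them (92.9%, against 59.0% of all genes), with a median of -0.12. Their array means relative to wild type were -0.120, -0.112 and -0.126 in hypomorph arrays, against -0.003, 0.007 and -0.004 in wild-type arrays. Of 78 nuclear genes for respiratory chain subunits 9 fell (11.5%) and 4 rose, with a median of -0.09. No difference between these families and the members was tested.

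Promoter letters were counted in RefSeq windows of 300 bases, from 250 before to 50 after the start, for the 65 members with one, beside 9882 tested genes. The ETS letters CCGGAAG stood in 24 windows, 36.9%, against 16.4% of all, and the NRF1 letters GCATGCGC in 8, 12.3%, against 5.01%. The letters AAGATGGCG of sites of YY1, a zinc finger factor, stood in 7 members, 10.8%, against 2.82%, and the E-box letters CACGTG in 5, 7.69%, against 10.8%. Of the 7 fallen genes 5 had the ETS letters, 2 the NRF1 letters and 0 either of the others. Members with the ETS letters had a median difference of -0.14 with 5 of 24 fallen, and those without had one of -0.06 with 2 of 41 fallen. Over all tested genes with a window, 9.78% of those with the ETS letters and 8.34% of those without fell, with medians of -0.04 and -0.05. The medians of members with and without the other letters were -0.11 and -0.10 for NRF1, -0.02 and -0.10 for YY1 and -0.02 and -0.10 for the E-box. For YY1 and the E-box the members with the letters were the less negative ones. Over all tested genes with a window these medians were -0.036 and -0.052 for NRF1, -0.063 and -0.05 for YY1 and -0.02 and -0.055 for the E-box. Genes with the E-box letters were thus the less negative ones there too. With the NRF1 letters 2 of 8 members fell, and without them 5 of 57, beside 11.7% and 8.41% of all such genes. None of these differences was tested. The motifs were chosen after expression values were seen, a match is a description and not a site or a cause, and a missing match says only that these letters are not in this window.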

How the data were processed

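Expression was measured on 6 single-channel Affymetrix MOE430A arrays, 3 per genotype. Per the submitters' processing notes the authors used Affymetrix Power Tools. No source used here gives its version, the background correction or the summarization. Each deposited value is the log2 signal of a probe set. That the base is 2 was taken from the range of values (1.96 to 14.33), and normalization between arrays from array medians of 5.66 to 5.72. None of the array titles reads MOE430A. That of wild-type replicate 3 names another array version than the other titles do, but its values are for the same probe sets. With no read depth, the number of arrays limits the precision.

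Of 22690 rows, 1 had no value and 64 were controls. Of the other 22625 probe sets, 20379 named 1 gene in the platform annotation, 691 several and 1555 none, and 20350 were matched to RefSeq by gene ID. The genes numbered 12393, of which 4955 had several probe sets.

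The genotype difference was fitted on all 6 arrays in R 4.3.3 by limma 3.58.1 (lmFit, then eBayes, two-sided, no covariate, no filter), with Benjamini-Hochberg adjustment over all genes. The fit was tested on simulated data. Python 3.11.15, pandas 2.3.3, scipy 1.17.1 and matplotlib 3.10.9 made tables and plots. With 3 arrays against 3, the smallest two-sided exact permutation p is 0.1.

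Members and lists were chosen with earlier results of these data known. Named genes are the members of largest change past the threshold, up to 20 each way, the 3 brightest and 3 dimmest, the one of smallest change, those whose other probe set was called the opposite way, Mrps30, Mrps18a and Mrps36, up to 4 genes of smallest p past the threshold in each pathway list, or 1 where none passed, and Atg16l1. Promoters shown are those of the 3 members of largest change off chromosome 18 and that of Mrpl39, chosen afterwards for its NRF1 letters. The 15 lists hold 216 genes, of which 177 were measured, and the rest were not analysed here. There were 19 alternative settings.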

Additional observations from a re-analysis of the deposited data

How the results depend on the processing

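The number of members that fell, 7 in the reported fit, was 8 with quantile normalization and with all probe sets, 10 with array weights and with genes above the lower quartile of level, 9 with trend and robust fitting, and 5 with median centring and with the mean of probe sets. It was 15 when only the 6196 genes above the median level were tested, which also lightens the adjustment. The members' share stayed near that of all features tested, with 20.5% of members and 18.2% of all above the median level, 13.5% and 11.3% with array weights, 13.5% and 12.7% above the lower quartile, 12.2% and 10% with trend and robust fitting, 10.8% and 9.13% with quantile normalization, 6.3% and 7.73% over all probe sets, 6.76% and 8.3% with median centring and 6.76% and 8.2% with the mean of probe sets. It was 0 when a 1.5-fold change was also asked for. With the spike-in covariate limma called 0 members and 0 of all genes (1 member lower at an unadjusted p under 0.05), and leaving out each array in turn gave 0 to 7. All 7 reported genes were among those called with quantile normalization, array weights and trend and robust fitting, and 4 of them with the mean of probe sets. Rises, 0 in the reported fit, were 3 with all probe sets (Mrpl17, Mrpl19 and Mrpl35), 1 with array weights (Mrpl11), 1 above the lower quartile (Mrpl42), 4 above the median level (Mrpl11, Mrpl27, Mrpl3 and Mrpl42), 1 with the mean of probe sets (Mrpl17), 2 with trend and robust fitting (Mrpl11 and Mrpl42) and 0 to 1 with an array left out. Above the median level these were 5.48% of members, against 21.1% of all genes that rose.

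The median over members, -0.095, was 0.006 with the spike-in covariate and negative under every other setting tried. Large minus small, 0.044, was 0.021 with all probe sets, 0.019 with array weights, 0.028 with quantile normalization, 0.077 with the spike-in covariate, 0.068 by structure and 0.028 to 0.066 with an array left out, always positive. Single differences were followed across settings only for the members named by the naming rule given above, not for all 74. Among those followed, the ones that changed sign with the spike-in covariate were Mrpl33 (0.241), Mrps14 (0.158), Mrpl1 (-0.411), Mrps30 (-0.02), Mrps18a (0.013) and Mrps36 (0.118). With the mean of probe sets the followed members that changed sign were Mrpl1 (-0.005), Mrpl9 (0.057) and Mrpl19 (0.069), and with array weights Mrps14 (0.0). Mrpl11, whose 3 other probe sets all had negative differences (-0.087, -0.128 and -0.341), was not among the members followed. With 1 array left out at a time, the differences ran from -0.047 to 0.016 for Mrps14, from -0.082 to 0.049 for Mrpl9, from -0.079 to 0.013 for Mrpl19 and from -0.098 to 0.002 for Mrps18a, with sign changes without wild-type replicate 1 (Mrps14, Mrps18a), 2 (Mrpl9) or 3 (Mrpl9, Mrpl19) and without hypomorph replicate 3 (Mrpl9). The cause of these changes was not tested.

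With the replicate number as a block (replicate block), 2 members fell, Mrpl52 and Mrps26 (2.7%, against 3.86% of all genes). Deviations of same-numbered arrays correlated at 0.153, 0.011 and 0.106, so the numbers are not taken to pair the samples, and not every array correlated best with its own number.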
